A study of Drosophila melanogaster with 13 samples.

Results

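The results concern 5 named genes, Madm, Rtnl2, Uhg5, LanA and Mob2, each with a probe that differed widely between testes mutant for aly and testes mutant for topi in Drosophila melanogaster. They were chosen by the difference between the aly and topi arrays, so every value from the aly and topi arrays is given as a description, without a test. Tests were kept to comparisons among the control, dany and sa arrays, which played no part in the choice. In the main fit, however, the spread was estimated from all genotypes, the aly and topi arrays included. A fit without those arrays was an alternative. The genes were found by the transcript or cDNA clone printed for each probe: 6 of the 32162 probes on the array belonged to them, and all 5 genes stood among the 361 of 468 matched genes, and the 19766 array targets in all, that passed the filter on dim probes. Madm (clone LD28657), Rtnl2 (transcript NM_079539), Uhg5 (transcript NR_033158) and LanA (transcript FBtr0077014) had 1 probe each, and Mob2 had 2 probes for the same clone, GH13236. Further probes for the same genes under transcript names that the gene table does not hold were not looked up.

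Testes were pooled, 80 per sample, from males aged 0 to 2 days kept at 25 °C, and each pool was hybridised to a 1-colour Agilent array. The series set a dany mutant beside representative meiotic arrest mutants. Replicates were labelled as biological. The 4 control samples came from w[1118]/Y males with Df(2R)BSC802 over a wild-type chromosome, and the 3 dany samples from w[1118]/Y males with Df(2R)BSC802 over dany[ex11]. The control and dany groups therefore both carry the deficiency. The sa samples (n = 2) were th sa[1] red over ru h sa[2] ca, the aly samples (n = 2) aly[2] red e over aly[5] red e in w* males, and the topi samples (n = 2) topi[Z3-0707] over topi[Z3-2139] with bw. None of these 3 genotypes carries the deficiency, and each has marker mutations of its own, so that mutation and strain background cannot be told apart in them.

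In the fly testis, spermatocytes switch on a large programme of transcripts before the meiotic divisions. The products of aly and topi belong to the testis meiotic arrest complex (tMAC), a testis form of a general chromatin complex, and sa encodes a testis-specific TAF, a relative of a subunit of the basal transcription factor TFIID. Loss of any of these genes stops germ cells as mature primary spermatocytes.

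The 5 genes do unrelated work. Madm encodes a kinase-like adaptor protein that acts with Bunched in tissue growth. Rtnl2 belongs to the reticulons, membrane proteins that shape the tubules of the endoplasmic reticulum. Uhg5 is a non-coding host gene whose introns carry small nucleolar RNAs (snoRNAs), guides for the modification of ribosomal RNA. LanA encodes an alpha subunit of laminin, a main component of basement membranes. Mob2 encodes a co-activator that binds kinases of the NDR family, such as tricornered.

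The arrays lay on 4 slides, and 60.9% to 76.5% of their probes stood well above background, with no saturated spot. Replicates of a group correlated at r = 0.917 for topi and at 0.962 to 0.992 in the other groups. f-cup, a spermatid transcript, had a control mean level of 4.92. The testis label could be checked against 4 of 19 listed spermatocyte and spermatid genes only, and the other 3 lay below the 75th percentile in control. hale and soti, at control means of -3.44 and -4.94, were above background on all 4 control arrays, and Prosbeta4R2, at -8.79, on none. The hale mean covers unlike arrays, with -0.91 in control on slide 1 and -4.57 to -3.93 on the other slides. In dany, sa and aly, too, hale was highest on slide 1, at -3.39, -2.67 and -1.83. The somatic cyst and hub list had 3 of 9 genes measured (eya, puc and ptc), and their summed signal on the control arrays was 6.78% to 13.9% of the array's 75th percentile signal. It was 7.65% to 9.14% for dany, 7.35% to 9.21% for sa, 9.24% to 17.0% for aly, and for topi 9.96% to 12.2%. Of the 3, only eya was above background on all 13 arrays, and ptc was above it on 5. The eya level was -5.24 to -4.84 in control, -4.88 to -4.25 in dany and -5.03 to -4.64 in sa, and it was higher in aly (-4.24 and -4.16) and topi (-3.85 and -3.69). The other listed genes did not share this rise in both mutants. Against control, puc differed by 0.36 in aly and -0.70 in topi, and ptc by -0.55 and -0.14. The puc means are unbalanced over slides, since topi had no array on slide 1. There puc read -3.34 in control and -3.18 in aly. On slide 2 puc read -5.24 in control and in aly and -4.97 in topi. On slide 3 it read -5.54 in control and -5.57 in topi. The puc probe was not well above background on the second topi array. No listed gene of the early germline, the muscle sheath, fat body, blood cells or accessory gland was matched, and the part of such cells, or of somatic cells, in the results was not tested. RNA came from whole testes, in which fewer cells of a type and less RNA per cell cannot be told apart. A level below is the log2 processed signal minus the array's 75th percentile, so that 0 is the 75th percentile, and levels are compared between samples for 1 probe, never between genes.

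Madm and Uhg5 had their highest levels in aly and their lowest in topi, with control in between, and Rtnl2 was far below all other samples in topi. LanA ran the other way, lowest in aly and high in topi. Mob2 was highest in topi by its brighter probe, while its dimmer probe put aly and topi at the same level. All 5 genes separated aly from topi without overlap, Mob2 by its brighter probe only, as did 55.3% of all tested targets, and nothing is read from that count since the difference chose the genes. The share of all targets in which dany or sa arrays separate in level from control was not counted. Nothing is therefore read from such separations below.

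**Figure D1:**
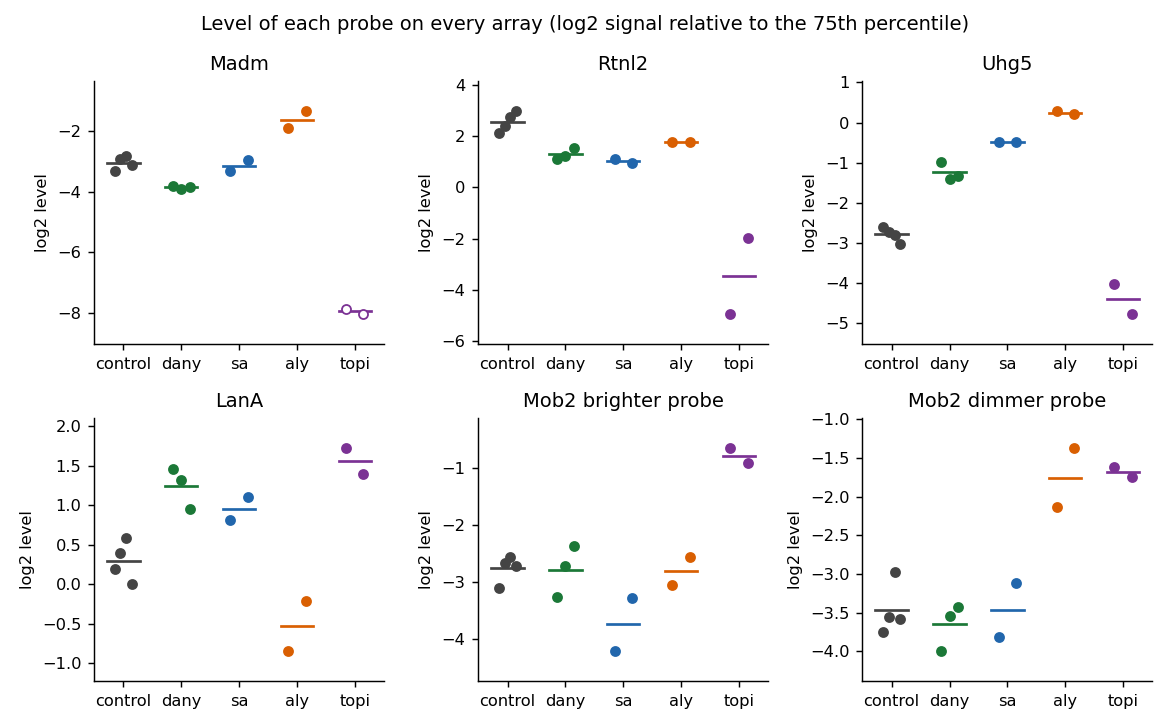
Level of each of the 6 probes on all 13 arrays, in log2 units above or below the array's 75th percentile, by genotype. Points are single arrays (open where the probe was not well above background) and bars are group means. Madm, Rtnl2 and Uhg5 lie lowest in topi, LanA lies lowest in aly, and the Mob2 probes differ in where they place aly.

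Madm was a dim probe in most groups. In control the levels were -3.33, -2.93, -2.83 and -3.12 (mean -3.05 ± 0.22, SD, n = 4), and in dany they were -3.80, -3.91 and -3.85. The 2 sa arrays, at -3.33 and -2.95, overlapped control. The aly arrays stood above the rest, at -1.90 and -1.35. On both topi arrays the probe was not well above background, with measured levels of -7.86 and -8.04 from signals of 7.80 and 7.20 units. The order was therefore aly, then control and sa, which overlapped, then dany, with topi last, and dany lay below all control and sa arrays.

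Because topi gave no signal above background, the difference in Madm is a bound. It was set against the dimmest signal that still counted as above background on each topi array, and it covers no replicate error. That floor averaged -6.38, but some probes not above background read higher. Cad86C, for example, was not above background on the topi arrays at -6.06 and -5.91. The bound is therefore no strict minimum. On that footing Madm was 27.0-fold higher in aly than in topi, 10.0-fold higher in control, 9.40-fold higher in sa and 5.74-fold higher in dany. Measured means put aly 6.32 log2 units above topi (SE 0.26), 1.43 above control (SE 0.23), and the difference of topi from control was -4.90. With normexp background correction, the aly minus topi value was 3.06 and the topi minus control value -1.89. Both are smaller in size than the bounds on the log2 scale, 4.75 and 3.33, so the bounds also depend on the background correction.

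Rtnl2 was a bright probe everywhere but in topi. The control levels were 2.10, 2.38, 2.74 and 2.96 (mean 2.55 ± 0.38, SD, n = 4). Lower values were found in dany, at 1.09, 1.22 and 1.53, in sa, at 1.12 and 0.94, and in aly, at 1.75 on both arrays. All 7 of these mutant arrays lay below the lowest control array, with dany and sa overlapping each other. The topi arrays read -4.94 and -1.98, from signals of 59.1 and 480 units, both well above background.

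The 2 topi arrays thus differed by 2.96 log2 units in Rtnl2, and 6.03% of all targets had a gap at least that large between them. The other 4 genes had topi gaps of 0.18 to 0.75. The aly minus topi difference in Rtnl2 was 5.20 (SE 0.71), and it was 3.72 without the first topi array and 6.68 without the second. Against control, aly differed by -0.80 (SE 0.61) while topi lay 64.1-fold below control (SE 0.61 on the log2 scale), a log2 difference that became -4.52 and -7.48 without the first and the second topi array. Both topi arrays lay below the other 11, as in 5.07% of all targets, and Madm and Uhg5 shared this place.

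Uhg5 was the only one of the 5 genes whose genotypes all separated. Control arrays read -2.59, -2.74, -2.81 and -3.02 (mean -2.79 ± 0.18, SD, n = 4). The dany arrays read -0.98, -1.41 and -1.34, the sa arrays -0.48 on both, and the aly arrays 0.28 and 0.21. In topi the levels were -4.02 and -4.77, below every other array. From low to high the order was topi, control, dany, sa and aly, with no overlap between any neighbouring groups. All 5 genotypes separated, in whatever order, in 7.2% of all targets.

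The aly minus topi difference in Uhg5 was 4.64 (SE 0.28), or 25.0-fold. aly lay 3.04 above control (SE 0.24) and topi differed from control by -1.60 (SE 0.24), a value that shrank to -0.87 with normexp background correction. Madm and Uhg5 shared the form of the difference: aly was entirely above control and topi entirely below it, as in 1.36% of all targets. In both genes the aly arrays were the 2 highest of the 13, which holds for 8.21% of targets.

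LanA was bright in every genotype. Its control levels were 0.20, 0.40, 0.59 and 0.01 (mean 0.30 ± 0.25, SD, n = 4), and its dany levels were 1.46, 1.32 and 0.96. The sa arrays, at 0.81 and 1.10, overlapped dany, while the topi arrays, at 1.72 and 1.39, overlapped dany too. Only the aly arrays, at -0.84 and -0.21, lay below control, and they were the 2 lowest of the 13, as in 6.94% of targets. aly differed from topi by -2.08 (SE 0.30) and from control by -0.82 (SE 0.26), and topi exceeded control by 1.26 (SE 0.26). Of all targets, 0.997% had aly entirely below and topi entirely above control, as LanA had.

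The brighter Mob2 probe set topi apart. Levels were -3.10, -2.67, -2.56 and -2.72 in control (mean -2.76 ± 0.24, SD, n = 4), -3.27, -2.73 and -2.36 in dany, and -3.04 and -2.57 in aly. These 3 groups overlapped. The sa arrays, at -4.20 and -3.29, were the 2 lowest of the 13, and the topi arrays, at -0.65 and -0.91, the 2 highest, a place that topi takes in 14.2% of all targets. aly differed from topi by -2.02 (SE 0.38) and from control by -0.04 (SE 0.33), and topi exceeded control by 1.98 (SE 0.33).

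The dimmer Mob2 probe gave another picture. In control it read -3.75, -3.56, -2.97 and -3.59, in dany -3.99, -3.55 and -3.42, and in sa -3.82 and -3.12, with all 3 groups overlapping. It was higher in aly, at -2.14 and -1.37, and in topi, at -1.62 and -1.74, and those groups overlapped each other. aly minus topi was -0.07 (SE 0.37), while aly exceeded control by 1.71 and topi exceeded it by 1.79 (SE 0.32 for each). With the mean of both probes, the Mob2 difference between aly and topi was -1.05 in place of -2.02.

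The disagreement was measured within each array as the brighter minus the dimmer probe. Only its change between genotypes can be read, since probes differ in efficiency. The gap was 0.65, 0.89, 0.42 and 0.87 in control, 0.73, 0.82 and 1.06 in dany, 0.97 and 0.83 in topi, -0.39 and -0.16 in sa, and -0.91 and -1.19 in aly. Control, dany and topi overlapped, sa lay below them, and aly lay below sa. On these arrays the 2 probes thus gave different pictures of sa and aly. For aly this is a description only, and for sa the test given next could not reach a p under 0.05.

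On the arrays that did not choose the genes, the gap in sa minus that in control was -0.98, with an exact two-sided permutation p of 0.133, the smallest that 2 against 4 arrays allow. The exact permutation p was 0.343 for dany against control (0.16) and 0.2 for dany against sa (1.14, the smallest possible there). For dany against control the smallest possible was 0.0571, so none of these comparisons could give a p under 0.05. Adjusted over these 3 comparisons, the p-values were 0.343 for dany against control and 0.3 for the other 2, again from the exact permutation test. Among the 3634 targets with 2 kept probes, 26.0% had gaps that did not overlap between sa and control, and 22.2% had a difference at least as large as that of Mob2. Between aly and topi, a gap difference as large as in Mob2 occurred in 8.34% of them. Both probes are annotated to the same clone, and where they lie within the transcripts of Mob2 was not determined here.

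**Figure D2:**
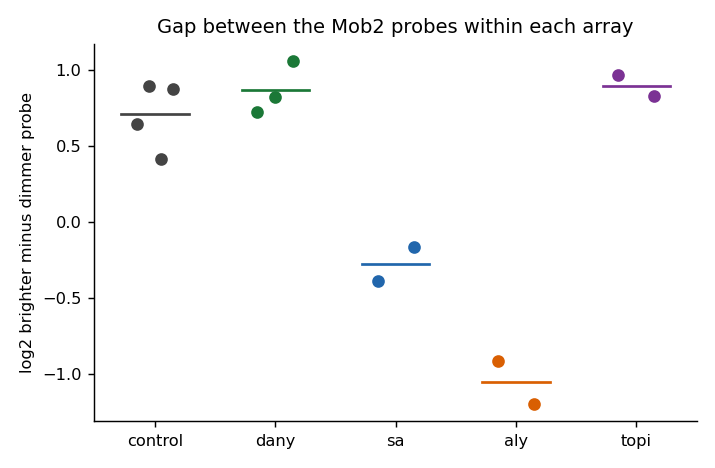
Log2 level of the brighter minus the dimmer Mob2 probe on each of the 13 arrays, by genotype, with bars for group means. Control, dany and topi lie between 0.42 and 1.06, sa at -0.39 and -0.16, and aly at -1.19 and -0.91.

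The aly minus topi differences were also ranked, as a description only, since the same difference chose the 5 genes. Among the few matched genes with a name, Madm, Rtnl2 and Uhg5 had the 3 largest excesses in aly, and the next was Cpr60D at 2.77. Among genes higher in topi, LanA and Mob2 came sixth and seventh by size, after LysE (-5.17), ND-B14.5AL (-3.88), Art7 (-2.33), lncRNA:Yu (-2.32) and Gen (-2.16), and just outside lay mRpS24 at -1.78. By size of the measured difference in either direction, Madm ranked 97 and Rtnl2 233 of the 19766 targets, Uhg5 378, LanA 2333 and Mob2 2434 by its brighter probe. The rank of Madm uses a topi signal not above background: its bound of 4.75 is below the 5.20 of Rtnl2, so the order of these genes is not settled. As a background for such differences, 14.9% of all targets were called between aly and topi at an adjusted p under 0.05 and at least 2-fold.

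**Figure D3:**
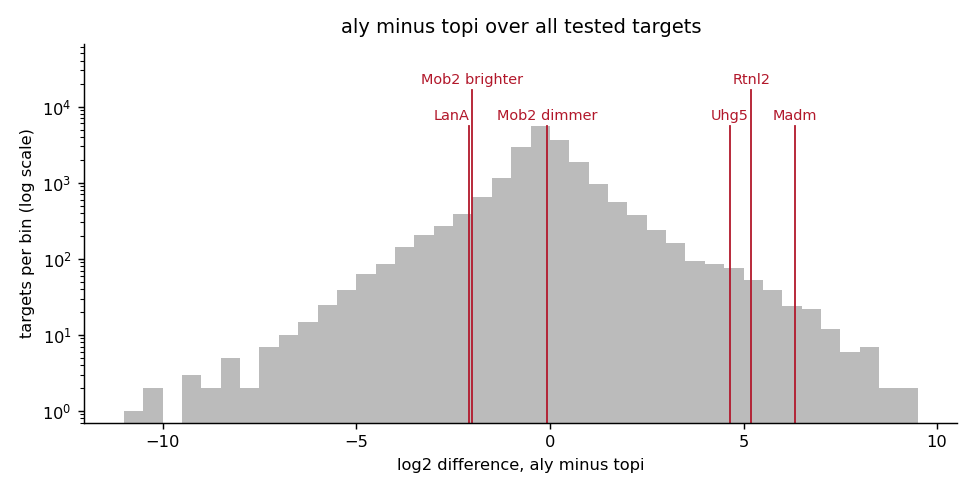
Number of targets (log scale) by log2 difference between aly and topi, for the 19766 tested targets, with the 6 probes of the 5 genes as vertical lines. Madm (6.32, measured against a topi signal not above background), Rtnl2 (5.20) and Uhg5 (4.64) lie in the upper tail, LanA (-2.08) and the brighter Mob2 probe (-2.02) on the lower side, and the dimmer Mob2 probe (-0.07) near the middle.

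The one slide that held both genotypes, with an array of each, gave the same signs for the single probes of Madm (6.51), Rtnl2 (6.68), Uhg5 (4.23) and LanA (-1.93) and for the brighter Mob2 probe (-1.91), while the dimmer Mob2 probe read 0.24. Madm and Rtnl2 lie on chromosome arm 3R, which also holds topi. LanA and Mob2 lie on 3L, which holds aly and sa, and Uhg5 lies on 2R, which holds dany. In gene order, 649 genes lie between Madm and topi and 373 between Rtnl2 and topi. LanA is separated by 493 genes from aly and 2246 from sa, and Mob2 by 1240 and 1499. Between Uhg5 and dany lie 1419 genes. Among matched genes the share called between aly and topi was 17.0% on 3R (16 of 94), 13.5% on 3L (10 of 74), 9.09% on 2R (6 of 66) and 16.1% over all arms (58 of 361). Any part of the strain background near these loci was not tested.

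The comparison of dany with control, in which both groups carry the deficiency, gave 1 called gene of the 5, Uhg5, against 43.6% of all targets called in either direction. A call needed an adjusted p under 0.05 in limma's moderated test, with Benjamini-Hochberg adjustment over all 19766 targets, and at least a 2-fold difference. Uhg5 rose in dany by 1.55 log2 units (SE 0.21, 95% interval 1.08 to 2.02, limma adjusted p = 0.000118), or 2.93-fold. The call ended with scaling to the median of each array (0.79, adjusted p = 0.0352) and in the authors' deposited table (0.96, adjusted p = 0.00652), where it stayed higher in dany but under 2-fold. Within the 3 slides that held both genotypes the difference was 1.61, 1.40 and 1.68.

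In the same comparison, LanA and Madm passed the adjusted p but not the 2-fold mark. LanA was higher in dany by 0.95 (SE 0.23, adjusted p = 0.00504 by limma), and Madm differed by -0.80 (SE 0.20, adjusted p = 0.00573). Within slides LanA gave 1.27, 0.73 and 0.95 and Madm -0.47, -1.09 and -0.73. Both depended on the scaling. LanA was called with slide as a block (1.05), with quantile normalization (1.28), in the authors' deposited table (1.30) and without control array 3 (1.04) or dany array 3 (1.09), while it was 0.19 with median scaling (limma adjusted p = 0.612) and 1.62 with spike-in scaling (adjusted p = 0.0713). Madm was called with median scaling (-1.56), with quantile normalization (-1.45) and in the authors' deposited table (-1.32), and was -0.13 with spike-in scaling (limma adjusted p = 0.913).

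Rtnl2 differed from control by -1.26 in dany (SE 0.54, 95% interval -2.47 to -0.06, limma adjusted p = 0.0704). Its standard error came from a spread shared by all groups, to which the 2 unlike topi arrays contributed. Without the aly and topi arrays the SE fell to 0.24 and Rtnl2 was called lower in dany (adjusted p = 0.00148), and leaving out either topi array alone also gave a call. Smaller differences came from quantile normalization (-0.72, limma adjusted p = 0.226), the authors' deposited table (-0.70, adjusted p = 0.186) and spike-in scaling (-0.60, adjusted p = 0.590). The fit without both genotypes called 2 of the 5 genes, Uhg5 and Rtnl2, against 48.0% of targets. The brighter Mob2 probe differed by -0.02 (95% interval -0.66 to 0.61, adjusted p = 0.949).

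Uhg5 was also the 1 gene of the 5 called in sa against control, where 41.7% of all targets were called. It rose by 2.31 log2 units (SE 0.24, 95% interval 1.78 to 2.85, limma adjusted p = 3.56e-05), or 4.97-fold. The call held under all 24 alternatives, with values of 1.97 to 2.41. Over all targets the median difference was 0.44 in sa and 0.06 in dany, and relative to these Uhg5 was higher by 1.88 and 1.49. Within the 2 shared slides the sa difference was 2.12 and 2.33. The control samples are the same in both comparisons, so the rises in dany and sa are not independent of each other.

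Mob2 differed from control by -0.98 in sa by its brighter probe (SE 0.33, limma adjusted p = 0.0280), just under 2-fold, and by -0.00 by its dimmer probe (95% interval -0.71 to 0.70, limma adjusted p = 0.998). Leaving out control array 1 (-1.10) or the second sa array (-1.44) brought a call for the brighter probe, as did median scaling (-1.26), quantile normalization (-1.24) and the authors' deposited table (-1.07). Without the first sa array it was -0.52 (limma adjusted p = 0.290), with the mean of both probes -0.49 (adjusted p = 0.208), and without control array 2, 3 or 4 the adjusted p was 0.0524 to 0.0602. Rtnl2 differed by -1.52 (SE 0.61, adjusted p = 0.0618 by limma) and was called without the aly and topi arrays (adjusted p = 0.00142), or without either topi array, at the same difference. LanA gave 0.66 (95% interval 0.08 to 1.24, adjusted p = 0.0567) and Madm -0.09 (95% interval -0.60 to 0.41, adjusted p = 0.751). Without the aly and topi arrays 2 of the 5 genes were called, against 45.4% of targets. With slide as a block Uhg5 and Rtnl2 were called in sa (45.6% of targets), and Uhg5, Rtnl2 and LanA in dany (46.6%).

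**Figure D4:**
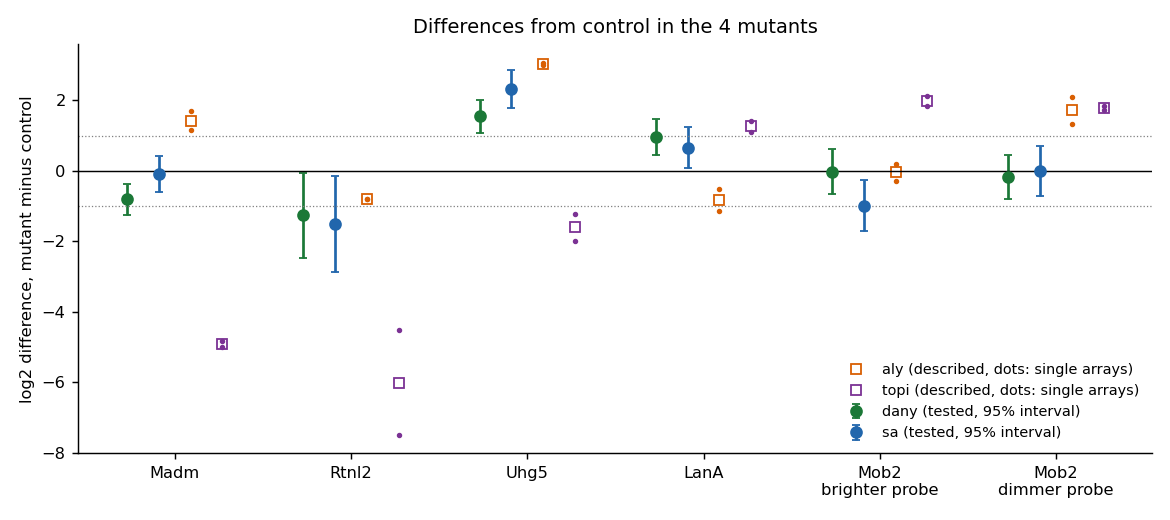
Log2 difference from control in each mutant for the 6 probes. Filled circles with bars are dany and sa with 95% intervals from limma, open squares are the aly and topi means with a dot for each array, which are described only, and dotted lines mark 2-fold. Uhg5 lies above the upper line in dany (1.55) and sa (2.31), and the Madm value in topi (-4.90) is measured below background.

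No gene of the 5 was called between dany and sa, where 40.9% of all targets were. By limma 3 of the 5 genes had an adjusted p under 0.05, but none of these reached 2-fold. The share of all targets under that adjusted p alone is not given here, so nothing is read from this count. The count was 0 as well without the aly and topi arrays (43.9% of targets called) and with slide as a block (44.7%). Uhg5 differed by -0.76 (limma adjusted p = 0.0298) and Madm by -0.71 (adjusted p = 0.0307), each under 2-fold. The brighter Mob2 probe differed by 0.96 (limma adjusted p = 0.0399), also under 2-fold, the dimmer probe by -0.18 (adjusted p = 0.682) and the mean of both by 0.39 (adjusted p = 0.357). LanA differed by 0.29 (95% interval -0.32 to 0.90) and Rtnl2 by 0.25 (95% interval -1.19 to 1.69). Madm and Uhg5 passed the 2-fold mark with median scaling (-1.19 and -1.24), with quantile normalization (-1.13 and -1.04) and in the authors' deposited table (-1.06 and -1.02). The brighter Mob2 probe did so without dany array 1 (1.20) or the second sa array (1.42), and gave 0.50 without the first sa array (limma adjusted p = 0.338). With median scaling (0.48), quantile normalization (0.62) and the authors' deposited table (0.50) its adjusted p was 0.207 to 0.381 by limma.

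Other snoRNA host genes did not share the topi level of Uhg5. Of 12 listed host genes, 3 were measured, Uhg2, Uhg3 and Uhg5. Uhg2 differed between aly and topi by -0.24 and Uhg3 by -1.11, with topi above control in both, by 1.98 and 1.61. Of the 3, only Uhg5 was called in dany or in sa against control. Uhg2 differed from control by 0.69 in dany (limma adjusted p = 0.0920) and 0.27 in sa (adjusted p = 0.564). Uhg3 differed by 0.73 in dany (limma adjusted p = 0.0596) and -0.78 in sa (adjusted p = 0.0782), and was called higher in dany than in sa (1.51, adjusted p = 0.00546).

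**Figure D5:**
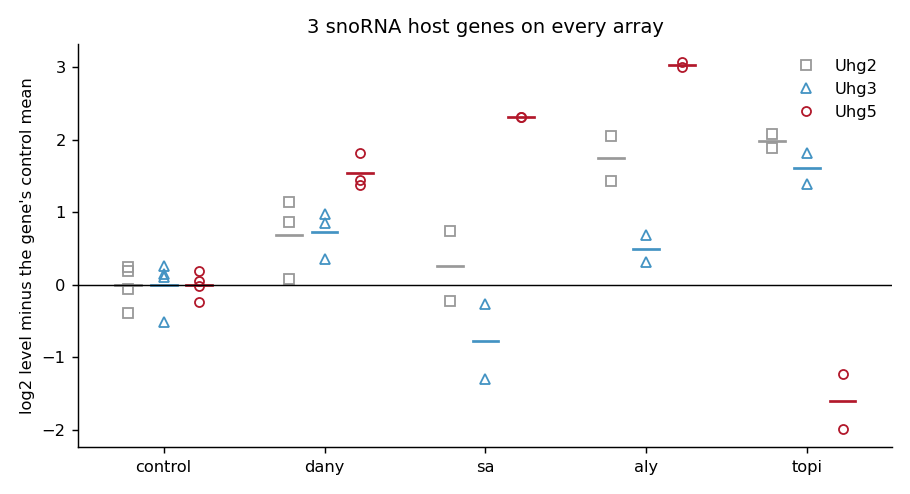
Log2 level of the snoRNA host genes Uhg2, Uhg3 and Uhg5 on each array minus the control mean of the same gene, with bars for group means. In topi the mean of Uhg5 lies at -1.60, while those of Uhg2 and Uhg3 lie at 1.98 and 1.61.

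Few relatives of the other genes were measured. The gig gene, whose product Tuberous sclerosis 2 restrains growth signalling through TOR, was the only other one of 7 listed Madm partners. It had lower levels in control (-3.47 to -3.20) than in aly (-2.26 and -1.96) and topi (-1.59 and -1.89), so it lay on the same side of control in both, unlike Madm. Against control gig differed by -0.19 in dany (limma adjusted p = 0.506) and 0.66 in sa (adjusted p = 0.0505), and neither was called. Of 11 laminin and basement membrane genes only LanA was measured, of 13 genes of the Mob and NDR kinase pathway only Mob2, of 6 genes of endoplasmic reticulum shaping only Rtnl2, and of 9 integrins and anchors none. Of the 10 listed tMAC genes only wuc was measured, and of 6 testis TAFs none. No probe was matched to dany, sa, aly or topi themselves.

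The genes most like each of the 5 were sought by Pearson's r of the level over the 13 arrays, among 174 named genes. Such an r is a description only, since arrays of a genotype share its whole difference. The aly and topi arrays, which chose the genes, also enter it. For Madm the nearest were Rtnl2 (r = 0.871), mxt (0.858) and Uhg5 (0.765), with a median r of -0.165 over all 174. mxt, at -4.74 and -5.83 in topi, was lowest there too, but on the second topi array it was not well above background. Nearest to Rtnl2 were Madm (0.871), otp (0.779) and mxt (0.740), and nearest to Uhg5 were Cdep (0.837), obst-B (0.770) and Madm (0.765). The otp and Cdep probes stood above background on only 6 and 5 of the arrays.

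LanA had looser company, with LysE (0.719), raptor (0.618) and Cad86C (0.549, above background on 3 arrays). Mob2 by its brighter probe ran with Uhg3 (0.892), Usp47 (0.873) and Blimp-1 (0.825). Among the 5 genes themselves, r ran from -0.777 between Madm and Mob2 to 0.871 between Madm and Rtnl2, and it was 0.375 between LanA and Mob2. Nothing is read from these signs, since the choice by the aly and topi arrays favours them.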

How the data were processed

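Signals were extracted by the authors with Agilent Feature Extraction, version 10.7.3.1, under protocol GE1_107_Sep09, per the file headers, on a design annotated to dm3. The gene table used here follows another release, and no coordinates are printed. Per the file headers, the deposited scanner output gives linear intensity values for each spot and other columns of 0 or 1 flags. The authors' deposited series table holds log2 values with near-equal medians (7.89 to 7.90 per array). Its background correction and centring are not given in the sources used here, and it served as an alternative.

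Of 45019 spots, 1417 control spots were dropped and spots of a probe were averaged. The log2 processed signal minus the array's 75th percentile was the level. A probe had to stand well above background on all arrays of 1 group or more, and the brightest kept probe stood for a target. Symbols matched 549 probes of 468 genes, and 31610 probes matched none. A model with 1 mean per genotype was fitted across the 13 arrays in R 4.3.3 with limma 3.58.1 (8 residual degrees of freedom), two-sided, and was tested on simulated data. The 2 arrays of sa, aly and topi limit the precision. The dimmer Mob2 probe was fitted in a further run with each kept probe on its own, chosen after seeing the data. A gene not above background in a group was given a bound, which is no strict minimum.

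Named genes were the 5 genes, the 3 nearest named genes of each by Pearson's r, and the matched genes of the lists. Genes and lists were chosen with earlier results of these data known. Alternatives were other scaling (median, quantile, 7 spike-in probes), normexp background correction (offset 50), the deposited table, no filter, the mean of probes, slide or replicate number as a block, and fewer arrays. Sequences of the probes and transcripts were not used here. One control sample has differing replicate numbers in its title and source name, and the title was followed.

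Whether replicate numbers mark pairs was not settled. After group means were removed, 4 of 11 pairs with the same number on different slides correlated above 0.1 (median r 0.0335). For 16 pairs on the same slide the median was 0.554. Those 4 pairs, at 0.476 to 0.674, held no topi array, and control array 3 with dany array 3 gave -0.0307. Every pair with a topi array lay at -0.0472 to 0.0592, also on the same slide. In a group of 2 arrays the values left after the mean mirror each other, so such pairs are not independent.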

Additional observations from a re-analysis of the deposited data

How the results depend on the processing

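No difference of the 5 genes that was called changed its direction under any of the 24 alternatives, and 325 of 360 values among dany, sa and control kept their side of the threshold. Counts over all targets moved with the scaling. In dany against control the 5529 targets called higher became 3675 with median scaling and 3491 with normexp background correction, and the 3091 called lower became 7338 with median and 825 with spike-in scaling. In sa against control the 5318 called higher became 1815 with spike-in scaling and 3147 with normexp, and the 2927 called lower became 1513 with spike-in scaling. In dany against sa the 3917 called lower became 6796 with median and 371 with spike-in scaling. The median of all targets in dany against control moved from 0.06 to -0.69 with median and 0.73 with spike-in scaling. With slide as a block, 3 of the 5 genes were called in dany (Uhg5, LanA and Rtnl2 at -1.51) and 2 in sa (Uhg5 and Rtnl2 at -1.66), against 46.6% and 45.6% of targets. Rtnl2 was also called with median scaling (-2.02 in dany, -1.80 in sa) and normexp (-1.22 and -1.50), but not with quantile normalization (-0.72 and -1.22), the deposited table (-0.70 and -1.22) or spike-in scaling (-0.60 and -1.42). With the replicate number as a block, Uhg5 gave 1.47 in dany and 2.19 in sa, no call of the 5 genes changed, and 5520 targets were called higher and 3264 lower in dany, 5255 and 2748 in sa, and 4203 and 4227 between dany and sa. That block speaks only of shared numbers, as whether the numbers mark pairs was not settled. The causes of these moves were not tested. Signals near background limit Madm in topi, and 2 arrays per genotype limit sa, aly and topi.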
